A study of Mus musculus with 44 samples.

Results

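Inhibitory signalling between microglia and their neighbours was followed through 10 genes, out of 50714 gene identifiers shared by all 44 count tables. They are the receptors Lag3, Havcr2, Vsir, Sirpa, Cd200r1, Cd300a and Lair1, and the ligands Lgals9, Cd47 and Cd200. All 10 were chosen by name with earlier results of these data in view: Lag3 and Lgals9 had been picked out by their levels in the microglial pull-down of tamoxifen mice relative to whole homogenate. Values of that contrast are therefore given as a description, without a test. All 10 were matched to Ensembl identifiers in GENCODE M21, were present in every count table and passed the filter on low counts.

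Inhibitory receptors of myeloid cells mostly carry tyrosine motifs in their cytoplasmic tails, which recruit phosphatases such as SHP-1 (Ptpn6) and dampen activation. CD47 and CD200 are membrane proteins, both made by neurons among other cells, that bind SIRPα (Sirpa) and CD200R1 on phagocytes. The first pair is the best known do-not-eat-me signal and has been tied to protection of synapses from engulfment, and the second restrains microglial activation. LAG3, TIM-3 (Havcr2) and VISTA (Vsir) are best known as immune checkpoints of T cells, and galectin-9 (Lgals9) is a ligand of TIM-3.

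The mice carried CX3CR1-CreERT2 and a floxed RPL10a-GFP allele, which tags a ribosomal protein in cells where the Cre has acted. The sample labels give both alleles as +/-, whereas the series' design text gives RPL10a-GFP as fl/fl. Tamoxifen was given at 100 mg/kg in sunflower seed oil and ethanol at p15, p17 and p19, and dorsal cortex with hippocampus was taken at p28 to p29. Controls carried the same alleles and received vehicle per the treatment protocol, although the design text calls them untreated. The Cx3cr1 promoter is active in microglia and also in other myeloid cells. Under each replicate letter 4 fractions were sequenced: whole homogenate (Input), its GFP ribosome pull-down (MG_TRAP), the synaptosome preparation (SN_input) and the pull-down from it (PeMP_TRAP, titled SN_TRAP in letters G to K). Letters A to C were control (n = 3 per fraction), and D to F were tamoxifen of the same first set. Letters G to K were tamoxifen of a second set (n = 5 per fraction), which held no control. The labels do not say whether a letter is 1 animal, so p-values measure the spread between these samples.

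Counts assigned to genes ranged from 746616 to 35584637 per library. The 5 second-set PeMP_TRAP libraries stood apart: they held 20442643 to 35584637 counts but only 5372 to 7369 genes with a count, against 11694 to 13096 genes in the first-set tamoxifen PeMP_TRAP libraries. Summed CPM (a gene's count scaled by the library's assigned counts) of 10 microglial markers ranged from 98.9 to 288 in tamoxifen Input, from 8011 to 24730 in tamoxifen MG_TRAP and from 3735 to 16730 in tamoxifen PeMP_TRAP. In control mice the same sum ranged from 907 to 4565 in MG_TRAP and from 567.6 to 3908 in PeMP_TRAP. The 4 endothelial markers summed to 268 to 1932 CPM in control PeMP_TRAP and to 0 to 348 CPM in tamoxifen PeMP_TRAP, and the part of either list in the results was not tested. In bulk samples, fewer cells of a type and less RNA per cell cannot be told apart.

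Per transcript length, the order of the 10 genes differed between fractions and, in part, between the sets, so medians are given for the first set (n = 3) and then the second (n = 5) of tamoxifen mice, in RPKM (the CPM per kilobase of exon). In Input the 3 genes Cd47, Sirpa and Cd200 led in both sets. Cd47 came first in the first set (60.8, against 26.5 for Sirpa and 20.7 for Cd200, with overlapping ranges) and Sirpa in the second (72.1, against 53.9 for Cd47 and 36.4 for Cd200, without overlap). No other member had a median above 2.835 RPKM there. In MG_TRAP Lgals9 led in both sets (322 and 388 RPKM), and its lowest library (278 RPKM) was above the highest library of any other member (256 RPKM, Sirpa). Vsir (100.8 RPKM) and Sirpa (83.4 RPKM) followed in the first set, where Lag3 came after Havcr2, at 34.6 RPKM. In the second set Lag3 (145 RPKM), Sirpa (128 RPKM) and Vsir (114 RPKM) followed, with overlapping ranges. In SN_input Cd47 and Sirpa led, at 23.8 and 20.1 RPKM in the first set and 28.1 and 62.1 RPKM in the second. Lag3 had 0.552 RPKM there in the first set and, next after Cd47, 20.6 RPKM in the second. In first-set PeMP_TRAP the order began with Sirpa (127 RPKM), Vsir (92.0 RPKM), Lgals9 (67.6 RPKM), Havcr2 (39.0 RPKM) and Lag3 (33.7 RPKM), neighbours whose ranges overlapped. In the second set Lag3 led (411 RPKM), and its lowest library (213 RPKM) was above the highest of any other member (199 RPKM, Vsir). Vsir (139.8 RPKM), Sirpa (119 RPKM), Lgals9 (74.5 RPKM) and Havcr2 (69.7 RPKM) followed with overlapping ranges.

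**Figure D1:**
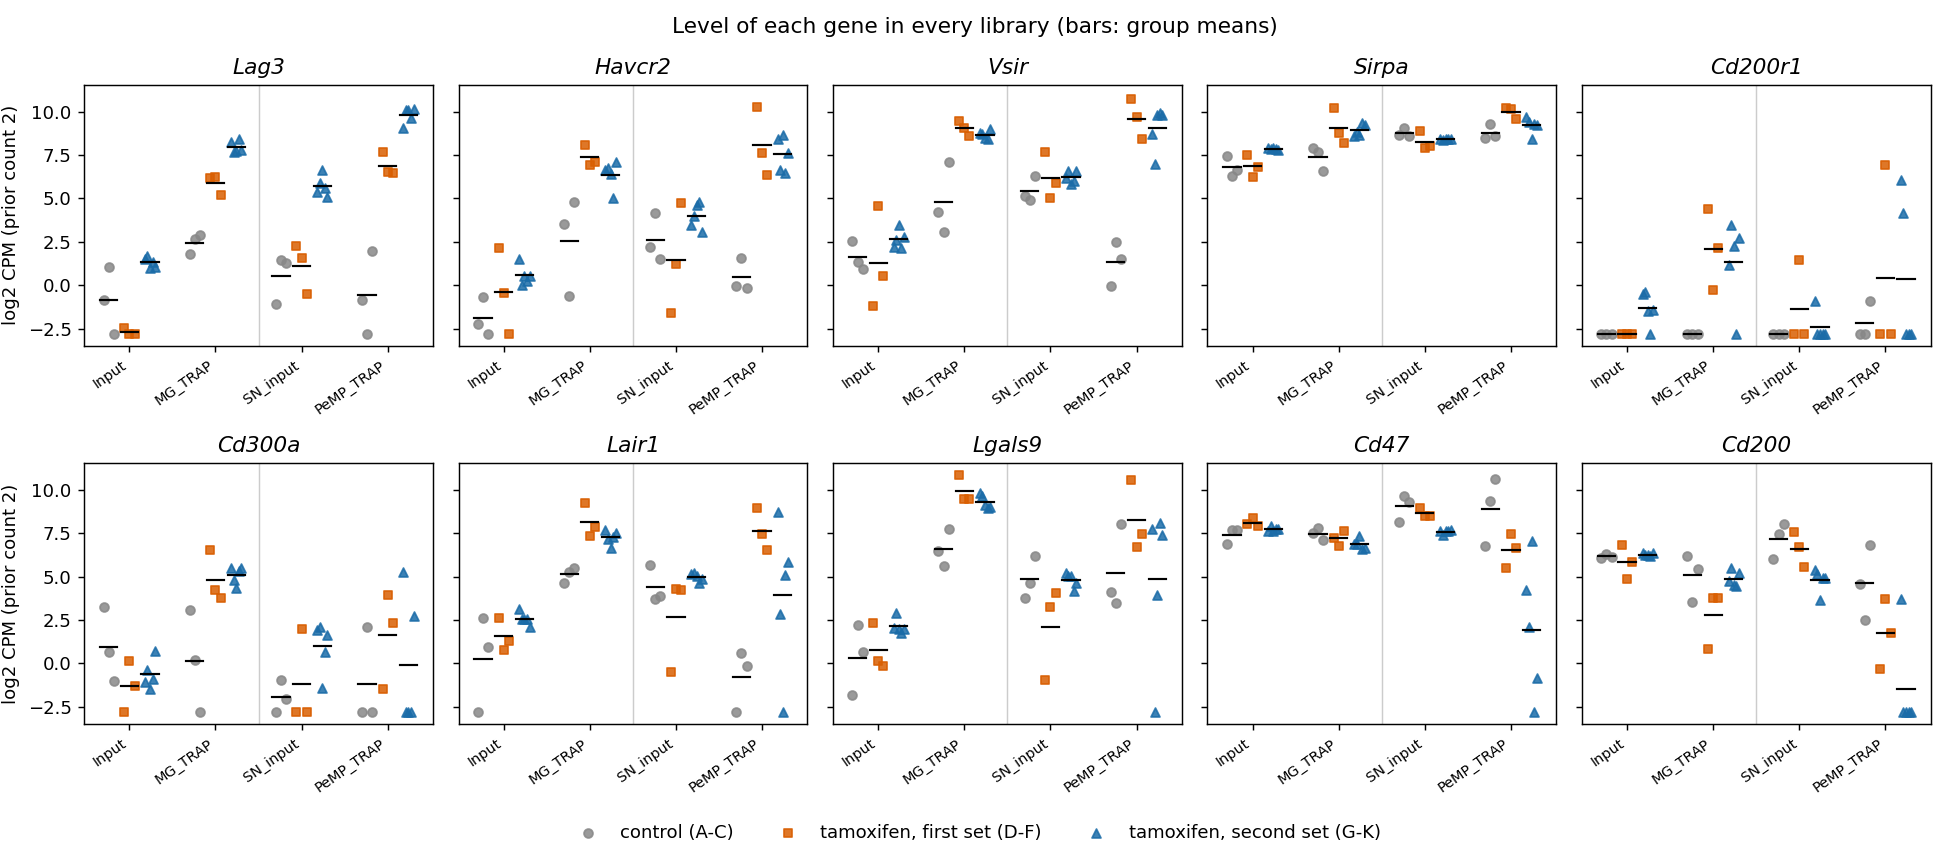
Each panel plots log2 CPM (TMM-scaled, prior count 2) of 1 gene in all 44 libraries, by fraction; bars are means of control (n = 3), first-set tamoxifen (n = 3) and second-set tamoxifen (n = 5) libraries. Lag3, Havcr2 and Vsir are high in every tamoxifen pull-down library, and Cd200 has no count in 4 of the 5 second-set PeMP_TRAP libraries.

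The whole-homogenate pull-down of tamoxifen mice held Lgals9 and most of the receptors at a higher level than homogenate did, which is the contrast known when the members were chosen. Cd200r1 was low there too, at 0 to 21.8 CPM. Lgals9 had 593 to 1967 CPM in MG_TRAP and 0.915 to 11.3 CPM in Input, a fitted log2 difference of 7.78. Lag3 had 30.5 to 473 CPM against 0 to 4.75 CPM, a difference of 7.79. The fitted differences of the other members were 6.31 for Havcr2, 6.21 for Cd300a, 6.04 for Vsir, 5.46 for Lair1, 4.46 for Cd200r1, 1.55 for Sirpa, -0.82 for Cd47 and -1.57 for Cd200. Sirpa, which neurons also express, was already abundant in Input (85.4 to 369 CPM).

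Whether the genes were also held by ribosomes tagged in the synaptosome preparation was asked by comparing PeMP_TRAP with SN_input in tamoxifen mice (n = 8 each), a contrast that shares no library with the one above. Lag3, Havcr2, Lgals9, Vsir, Lair1, Sirpa and Cd200r1 were higher in PeMP_TRAP, and the ligands Cd47 and Cd200 were lower. Of the 10 members, 7 rose and 2 fell at an adjusted p under 0.05 in edgeR's quasi-likelihood test. Over all 15710 genes tested, 6.15% rose and 26.1% fell. The median log2 difference was 2.90 over the members and -0.75 over all genes tested. Microglial markers moved the same way (10 of 10 rose), and 9 of 10 neuronal, 5 of 5 oligodendrocyte and 3 of 6 astrocyte markers fell. Of the other myeloid lists, 2 of 6 border macrophage markers fell and none rose. These 6 summed to 20.1 to 213.5 CPM in first-set tamoxifen PeMP_TRAP, against 17.1 to 23.6 CPM in SN_input. In the second set they summed to 0 to 201.5 CPM (median 0), against 19.2 to 31.1 CPM. Of 5 monocyte and neutrophil markers 2 were tested, and both fell. In tamoxifen SN_input those 5 summed to at most 3.175 CPM in the first set and 4.20 CPM in the second. Of 6 B and plasma cell markers, 5 were tested, of which 4 rose and 1 fell. The 6 summed to 119 to 3410 CPM in first-set and 879 to 2376 CPM in second-set tamoxifen PeMP_TRAP, against 6.14 to 313 CPM and 74.3 to 95.4 CPM in SN_input. Igkc, an immunoglobulin light chain, had 17409 to 51010 counts in second-set PeMP_TRAP, whereas Cd79a was at 0 in all 8 tamoxifen PeMP_TRAP libraries. The part of these lists in the result was not tested.

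Lag3 (chr6:124904361-124911705, minus strand, GRCm38), a receptor for MHC class II, gave the most certain rise. In PeMP_TRAP of the first set its level was 71.1, 51.1 and 72.9 CPM, against 3.31, 1.17 and 0.212 CPM in SN_input. In the second set it was 449, 931, 867, 842 and 1075 CPM in PeMP_TRAP, against 35.9, 52.7, 86.0, 43.3 and 30.9 CPM in SN_input. All letters were higher in the pull-down; the groups overlapped only across sets, and within each set every PeMP_TRAP library was above every SN_input library. The fitted difference was 4.56 (SE 0.57, adjusted p = 5.1e-07, 23.6-fold), and Lag3 was called in every alternative run. Because LAG3 is best known from T cells, 10 T and NK cell markers were read beside it. All 10, among them Cd3d, Cd3e, Cd3g, Trac and Trbc2, were at 0 in all 5 second-set PeMP_TRAP libraries, where Lag3 had 15905 to 30061 counts. Few genes had a count in those libraries (5372 to 7369), and the neuronal markers Gad1 and Gad2 were at 0 in all 5 as well. In first-set tamoxifen PeMP_TRAP the 10 markers summed to 0.318 to 2.81 CPM, and in SN_input to 0.276 to 27.9 CPM in the first and 31.4 to 45.1 CPM in the second set. In second-set MG_TRAP 7 of the 10 were at 0, and Trbc2 had 308 to 722 counts there against 4489 to 12841 for Lag3.

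Havcr2 (chr11:46454935-46481255, plus strand), which encodes TIM-3, had 443, 106 and 68.9 CPM in first-set PeMP_TRAP and 295, 82.2, 318, 93.7 and 190 CPM in the second set. In SN_input it had 0.138, 0.906 and 9.95 CPM in the first set and 9.86, 13.9, 21.5, 24.7 and 7.44 CPM in the second. The lowest pull-down library was above the highest input library. The difference was 4.39 (SE 0.80, adjusted p = 0.000144 by edgeR, 20.9-fold) and was called in every alternative run.

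Vsir (chr10:60346851-60372684, plus strand) encodes VISTA, a B7-family protein with roles as receptor and ligand. Its PeMP_TRAP levels were 590, 461 and 280 CPM in the first set and 359, 107, 701, 996 and 876 CPM in the second. SN_input held 148, 12.9 and 22.2 CPM in the first set and 64.9, 86.9, 49.0, 58.7 and 87.3 CPM in the second. Only letter H of PeMP_TRAP, at 107 CPM, lay below any input library, that of letter D. The difference was 3.17 (SE 0.56, adjusted p = 0.000113 by edgeR); within the first set alone it was 3.28 with an adjusted p of 0.096. Vsir lies inside Cdh23 on the opposite strand without a shared exon, and the strand setting of the counting is not given in the sources used here.

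The SIRPα to CD47 axis split by partner. Sirpa (chr2:129592835-129632228, plus strand), the receptor, had 424, 624 and 630 CPM in first-set PeMP_TRAP and 699, 568, 269, 641 and 586 CPM in the second set. SN_input held 348, 98.8 and 97.2 CPM, then 305, 291, 295, 318 and 309 CPM. Letter I of PeMP_TRAP, at 269 CPM, was below the second-set input libraries before TMM scaling, so the groups overlapped. After that scaling each letter was higher in the pull-down than in its input, by a fitted 1.21 (SE 0.35, adjusted p = 0.00744 by edgeR, 2.31-fold). The call was lost with no filter, with voom and within the first set alone (1.69). Sirpa has closely related family members among which reads can be split.

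Cd47 (chr16:49800533-49915010, plus strand) had 365, 149 and 135 CPM in first-set SN_input and 176, 152, 171, 180 and 189 CPM in the second set. In PeMP_TRAP it had 15.9, 96.5 and 85.1 CPM in the first set and 16.2, 3.43, 105, 0 and 0.392 CPM in the second. Every pull-down library was below every input library in CPM, and letter J had no count; after TMM scaling the groups overlapped. The fitted difference was -2.28 (SE 0.73, adjusted p = 0.0151 by edgeR, 4.86-fold lower). It was not called within either set alone (-1.87 in the first, -2.69 in the second) or when only the compared groups were fitted.

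The receptor to ligand ratio of Sirpa and Cd47, per transcript length, gathered these values in each library. It ranged from 0.286 to 0.893 in first-set and from 1.22 to 1.55 in second-set tamoxifen Input, and from 0.846 to 1.22 and from 2.09 to 2.45 in SN_input. In MG_TRAP it ranged from 1.90 to 10.1 in the first set and from 3.14 to 8.69 in the second. In PeMP_TRAP it ranged from 8.26 to 34.0 in the first set and from 3.27 to 1909 in the 4 second-set libraries with a Cd47 count. In control mice no fraction exceeded 4.20, and PeMP_TRAP ranged from 0.317 to 4.20. The second-set spread rests on Cd47 counts of 10 to 3655.

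**Figure D2:**
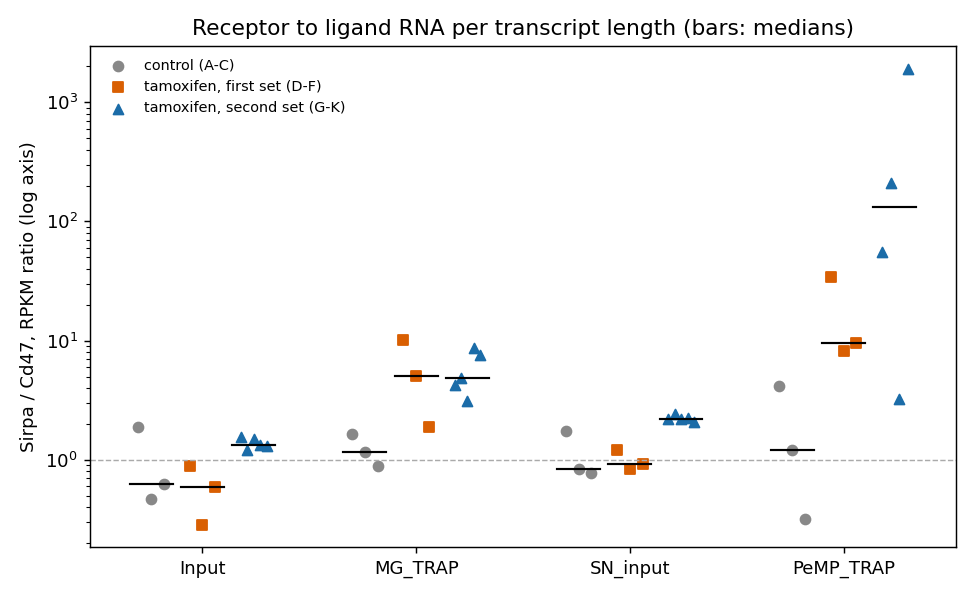
The vertical log axis is the ratio of Sirpa to Cd47 RPKM in each library, by fraction, treatment and set; bars are medians and the dashed line is a ratio of 1. First-set tamoxifen PeMP_TRAP libraries lie between 8.26 and 34.0, above the control PeMP_TRAP libraries (0.317 to 4.20), and 1 second-set PeMP_TRAP library without a Cd47 count is not drawn.

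The CD200 axis was thinly covered in the pull-down. Cd200 (chr16:45382135-45409053, minus strand), the ligand, had 139, 42.5 and 17.4 CPM in first-set SN_input and 37.5, 31.8, 11.04, 27.2 and 27.6 CPM in the second set. In PeMP_TRAP it had 0.238, 7.24 and 2.7 CPM in the first set and 11.3 CPM in letter G. The other 4 second-set pull-down libraries had no count, which allows levels of up to 0.0865 to 0.147 CPM (3 counts per library, counting error only). In those 4 libraries only 5372 to 6112 genes had a count despite their depth, so this limit may be too low; that was not tested. All letters were lower in the pull-down, by a fitted -3.95 (SE 1.16, adjusted p = 0.00822 by edgeR); neither set alone nor the fit of the compared groups called it.

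Cd200r1 (chr16:44765736-44794978, plus strand), its receptor and a member of a family of close relatives, was called higher on the strength of 3 libraries. PeMP_TRAP had 164 counts in letter E, 2059 in letter G and 348 in letter H, and none in the other 5. SN_input had 8 counts in letter E, 4 in letter G and none in the other 6. The fitted difference was 6.48 (SE 1.94, adjusted p = 0.00895 by edgeR), a value that depends on the prior count with so many zeros. It was not called by voom or within the first set.

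Lair1 and Cd300a, receptors for collagen and for phospholipids respectively, were less regular. Lair1 (chr7:4003402-4063204, minus strand) had 173, 96.1 and 75.6 CPM in first-set PeMP_TRAP, against 0.414, 7.77 and 6.99 CPM in SN_input. In the second set it had 370, 5.97, 0, 35.4 and 56.0 CPM in PeMP_TRAP, against 31.0, 33.6, 29.1, 23.0 and 26.6 CPM in SN_input. The first-set groups did not overlap, and in the second set letters H and I were below every input library of that set. The fitted difference of 2.64 (SE 0.88, adjusted p = 0.0189 by edgeR) was 4.30 within the first set and 1.68, not called, within the second. It also lost its call without letter D (2.07), E (2.40) or G (1.91), and its sign turned under voom (-0.38). The call was also lost with the compared groups alone (3.03) and with the letter as a replicate block (1.98). Cd300a (chr11:114890041-114904654, plus strand) had 0 to 33.5 CPM in PeMP_TRAP, with no count in 3 libraries, and 0 to 3.70 CPM in SN_input. Its difference of 2.05 (SE 1.26, adjusted p = 0.22 by edgeR) was not called. Both genes belong to clusters of related genes, so their counts are uncertain to that extent.

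Lgals9 (chr11:78962974-78984946, minus strand), the galectin ligand, went with the receptors rather than with Cd47 and Cd200 in direction. PeMP_TRAP held 541, 58.7 and 144 CPM in the first set and 184, 0, 12.1, 281 and 159 CPM in the second. SN_input held 0.276, 3.88 and 6.14 CPM, then 32.4, 28.8, 28.9, 16.4 and 22.4 CPM. The fitted difference was 3.71 (SE 0.90, adjusted p = 0.00177 by edgeR), higher in 6 of 8 letters; letters H and I were lower. It was 6.09 (SE 1.29) within the first set and 2.06 (SE 0.98, not called) within the second, and voom did not call it (1.00). The difference between the sets, tested as an interaction, was -3.92 (SE 1.59, adjusted p = 0.097 by edgeR). For no member did the sets differ past the threshold, where 15.1% of all genes tested did. At an unadjusted p under 0.05 there were 1 member, Lgals9, and 4611 of 17961 genes. The no-filter fit and voom called 1 member each, among 2417 and 1767 genes in all.

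**Figure D3:**
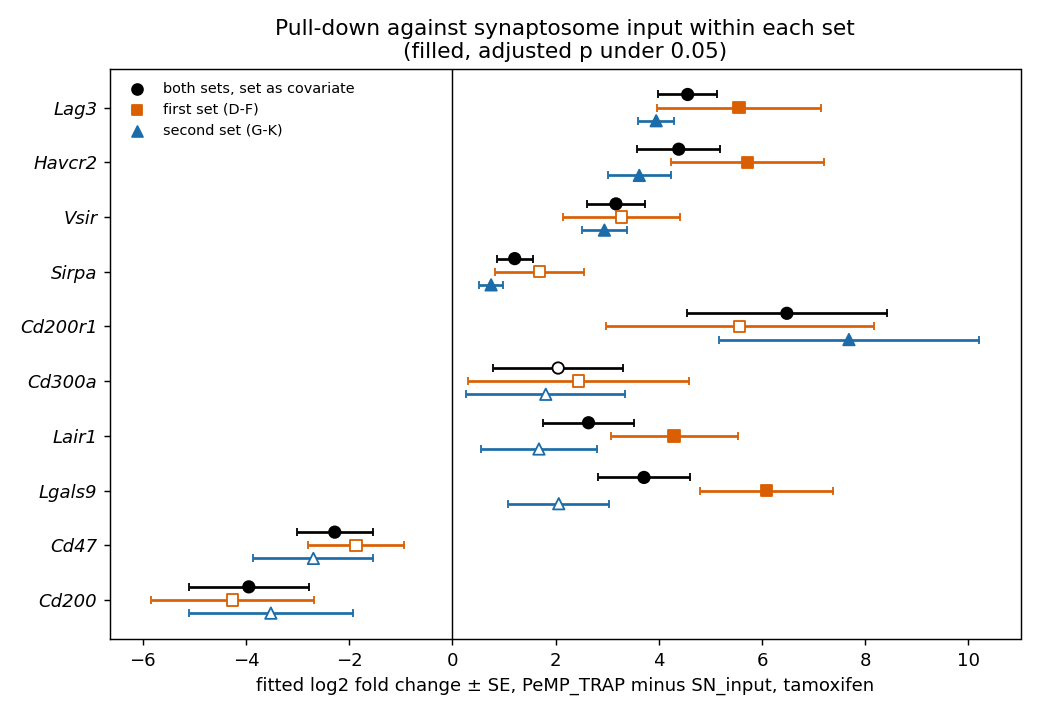
Points are fitted log2 fold changes of PeMP_TRAP over SN_input in tamoxifen mice with SE bars, for both sets together (n = 8), the first set (n = 3) and the second set (n = 5); filled points have an adjusted p under 0.05. Lag3 and Havcr2 are filled in all 3 fits, and Cd47 and Cd200 are negative in all 3 but filled only with both sets together.

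Promoter sequence was read for the members in RefSeq's table (GRCm38.p6), which matched 7 of 10: Lgals9, Havcr2, Lair1, Cd300a, Vsir, Cd200 and Cd47. Each window runs from 250 bases before to 50 bases after RefSeq's start of transcription. For Cd47 that start lies inside the gene as GENCODE M21 draws it, downstream of the start given above; the table holds 2 overlapping Cd47 windows, of which the first is used. The purine-rich core GAGGAA, the kind of site bound by the myeloid factor PU.1, was searched on both strands (TTCCTC on the other). It stood in 5 of the 7 genes' windows, namely Lgals9 (2 matches), Havcr2, Lair1, Cd300a and the ligand Cd200, against 28.3% of all 32851 promoters. Windows of Vsir and Cd47 had no match, and held 3 matches each to the GC box GGGCGG, which 35.7% of promoters held. The Cd200 window held 1 GC box beside its GAGGAA match, and the other 4 windows held none. CpG pairs numbered 1 to 4 in Lgals9, Havcr2, Lair1 and Cd300a, 8 in Cd200, 15 in Vsir and 35 in Cd47, with a median of 7 over all promoters. A match is a description of letters and not a bound site. Of the genes that rose in the pull-down, the windows of Lgals9, Havcr2 and Lair1 are shown beside that of Cd47, which fell, 5′ to 3′ on the gene's strand, with GAGGAA or its complement TTCCTC in capitals.
Lgals9 (chr11:78984875-78985174, minus strand): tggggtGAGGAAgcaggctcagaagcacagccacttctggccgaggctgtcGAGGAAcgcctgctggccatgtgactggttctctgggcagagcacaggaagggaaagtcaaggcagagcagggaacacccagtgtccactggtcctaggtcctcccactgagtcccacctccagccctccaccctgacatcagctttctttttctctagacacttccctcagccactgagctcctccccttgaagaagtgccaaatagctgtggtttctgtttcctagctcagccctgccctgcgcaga
Havcr2 (chr11:46454681-46454980, plus strand): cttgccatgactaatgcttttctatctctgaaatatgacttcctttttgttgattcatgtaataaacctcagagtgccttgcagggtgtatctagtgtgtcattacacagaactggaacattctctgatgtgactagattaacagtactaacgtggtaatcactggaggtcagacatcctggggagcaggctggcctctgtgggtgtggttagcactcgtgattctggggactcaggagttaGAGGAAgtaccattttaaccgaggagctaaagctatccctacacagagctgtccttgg
Lair1 (chr7:4063155-4063454, minus strand): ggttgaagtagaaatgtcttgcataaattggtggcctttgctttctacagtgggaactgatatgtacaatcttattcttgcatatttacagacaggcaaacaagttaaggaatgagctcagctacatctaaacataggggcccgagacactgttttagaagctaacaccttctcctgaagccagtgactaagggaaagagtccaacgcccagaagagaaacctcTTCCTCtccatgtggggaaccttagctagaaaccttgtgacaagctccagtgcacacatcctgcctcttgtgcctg
Cd47 (chr16:49855404-49855703, plus strand): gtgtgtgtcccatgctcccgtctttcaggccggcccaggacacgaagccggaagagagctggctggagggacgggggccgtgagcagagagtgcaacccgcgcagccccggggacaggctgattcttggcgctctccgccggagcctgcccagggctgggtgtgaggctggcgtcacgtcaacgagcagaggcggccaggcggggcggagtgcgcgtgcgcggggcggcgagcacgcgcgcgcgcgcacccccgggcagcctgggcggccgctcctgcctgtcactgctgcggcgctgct
The capitals lie at -244 and -199 from the start in Lgals9, at -8 in Havcr2 and at -26 in Lair1, and the Cd47 window has none.

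Part of the receptor signal was already present in the synaptosome preparation before the pull-down. When SN_input was set against homogenate within the tamoxifen group (n = 8 each), Vsir and Havcr2 rose, by fitted log2 differences of 3.61 (SE 0.58) and 3.35 (SE 0.76), with adjusted p of 5.28e-05 and 0.00719 in edgeR's quasi-likelihood test. The same Input libraries took part in the contrast by which Lag3 and Lgals9 had been picked, so for these 2 genes the values are a description without a test (4.68 for Lag3 and 2.61 for Lgals9). That contrast was also known when the other members were chosen, and the p-values of Vsir and Havcr2 take no account of that. With Lag3, 3 of the 10 members passed the threshold upwards, where 2.08% of all genes tested did, and none downwards (0.465% of all genes); because of the shared libraries nothing is read from that count. Lag3 had 0.0578, 0 and 0 CPM in first-set Input, and 4.07, 4.75, 2.89, 3.76 and 3.02 CPM in the second set. Lair1 (2.36), Sirpa (0.85), Cd47 (0.13, SE 0.70) and Cd200 (-0.38, SE 1.06) were not called. Cd200 differed in direction between the sets. Its mean log2 CPM was 6.61 in SN_input and 5.86 in Input of the first set, but 4.82 and 6.28 in the second. Second-set ranges of Cd200 did not overlap, at 11.04 to 37.5 CPM in SN_input and 113 to 130 CPM in Input. That difference between the sets was not tested. Of 10 microglial markers 9 rose in the same comparison, as did 2 of 6 astrocyte, 2 of 5 oligodendrocyte and 1 of 6 border macrophage markers, and their part in the result was not tested. The first set alone called none of the 10 members and 6 of 12968 genes; the fit of the compared groups called 6 members and 2779 of 14620 genes, against 400 of 15710 genes here. The scaling mattered here: the median over all genes tested was -0.02 with TMM, -0.72 with RLE and -1.07 with total counts, and calls over all genes were 327 higher and 73 lower with TMM but 93 higher and 230 lower with total counts. With total counts Cd47 was -0.88, Sirpa was -0.15 and Havcr2 (2.15) lost its call, as it did with RLE scaling (2.53).

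Whether the balance among the genes differed between tagged ribosomes of the synaptosome preparation and of the whole homogenate was read from PeMP_TRAP against MG_TRAP in tamoxifen mice. This comparison shares its MG_TRAP libraries with the one by which Lag3 and Lgals9 had been picked, so the values of these 2 genes are a description without a test. The earlier comparison was also known when the other members were chosen, and their p-values take no account of that. None of the other 8 members passed the threshold by edgeR, where 3.17% of all genes tested were higher and 22.0% lower. At an unadjusted p under 0.05 there were 2 of them, Havcr2 and Cd200, and 5382 of all 15710 genes tested. Lag3 levels in MG_TRAP were 75.6, 73.0 and 30.5 CPM in the first set and 420, 276, 307, 473 and 300 CPM in the second, below the PeMP_TRAP values in the second set except that letter G's 449 CPM lay below letter J's 473. The first-set ranges overlapped in CPM. After TMM scaling they did not, at 5.20 to 6.26 log2 CPM in MG_TRAP and 6.46 to 7.65 in PeMP_TRAP, and Lag3 was higher in PeMP_TRAP in all 8 letters. The fitted difference was 1.45 (SE 0.50), and it was 0.87 with RLE scaling, 0.66 with total counts and 1.08 in the first set. The median over all genes tested was -0.57 with TMM, -1.10 with RLE, -1.30 with total counts and -2.73 with voom, so under the first 3 Lag3 stood above that median by a like amount. Lgals9 went the other way in all 8 letters, at -1.46 (SE 0.79), -2.24 with RLE scaling, -2.44 with total counts and -4.27 with voom. The ligand Cd200 was lower by a fitted -2.75 (SE 1.14, adjusted p = 0.071 by edgeR). It was called lower in 5 of 9 alternatives, from -3.19 with RLE scaling to -5.91 with voom, and without letter E (-3.42) or G (-4.74). Cd47, at -1.34 (SE 0.72, adjusted p = 0.189 by edgeR), was called lower in 4 of 9, from -1.89 to -4.21. The receptor Cd300a was lower in all 8 letters (-2.20, SE 1.26, adjusted p = 0.219 by edgeR) and called lower in 2 of 9. Lair1 (-0.46) was called lower in 1 of 9. Havcr2 (1.42) and Cd200r1 (2.01) were called in none, and the sign of Cd200r1 changed in 2. In the same comparison 3 of 10 neuronal, 2 of 10 microglial and 2 of 6 border macrophage markers were lower, and 1 each of the neuronal, astrocyte and oligodendrocyte markers was higher; their part was not tested. The differences of Vsir (0.74) and Sirpa (0.50) turned negative with total counts (-0.03 and -0.26). For Sirpa the sign changed in 3 of the 9 alternatives, total counts included.

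Tamoxifen and control mice were compared within the first set (n = 3 each). In PeMP_TRAP, Vsir, Lair1, Havcr2 and Lag3 were higher with tamoxifen and Cd47 was lower. These were 4 of the 10 members called higher and 1 lower, where 5.56% of all genes tested were higher and 5.56% lower. Havcr2 had 2, 2 and 2 counts in control and 5580, 264 and 51 with tamoxifen (8.12, SE 1.93, adjusted p = 0.00965 by edgeR). Vsir had 2, 4 and 7 counts against 7435, 1147 and 207 (8.06, SE 1.53, adjusted p = 0.00403). Lair1 had 0, 1 and 2 counts against 2178, 239 and 56 (8.33, SE 1.82, adjusted p = 0.0072). Lag3 had 1, 0 and 10 counts against 896, 127 and 54 (6.08, SE 1.91, adjusted p = 0.035). For these 4 receptors every tamoxifen library was above every control library, and with so few control counts the fitted sizes depend on the prior count. Of 4 B and plasma cell markers tested, 2 rose in the same comparison, as did 5 of 10 microglial markers. Of the other lists, 2 of 10 neuronal, 2 of 5 oligodendrocyte, 2 of 4 endothelial and 1 of 6 astrocyte markers fell. The part of these lists in the rises and in the fall of Cd47 was not tested. Vsir was called in every alternative. Havcr2 and Lair1 lost the call only when the compared groups were fitted alone, where 23 of 6518 genes were called. Lag3 lost it there and without any 1 of letters A, B, D, E and F, with values of 5.91 to 6.27.

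Cd47 had 129, 419 and 1019 CPM in control PeMP_TRAP and 15.9, 96.5 and 85.1 CPM with tamoxifen, every tamoxifen library below every control library in CPM but not after TMM scaling. The fitted difference was -2.97 (SE 0.90, adjusted p = 0.0308 by edgeR), and the call was lost without letter B (-2.92), C (-1.82), D (-2.43) or F (-2.89). It was also lost with no filter (-2.91), with voom (-3.15) and when the compared groups were fitted alone (-3.03). Cd200 had 28.3, 3.54 and 73.6 CPM against 0.238, 7.24 and 2.7 CPM, overlapping groups, and was not called (-3.12, adjusted p = 0.107). Sirpa was present in both, at 425, 397 and 253 CPM in control and 424, 624 and 630 CPM with tamoxifen (0.85, adjusted p = 0.471). Lgals9 was present in control too, at 21, 7.08 and 174 CPM, and its difference of 2.21 (adjusted p = 0.199) was not called; it ran from 0.56 without letter D to 5.36, called, without letter C.

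**Figure D4:**
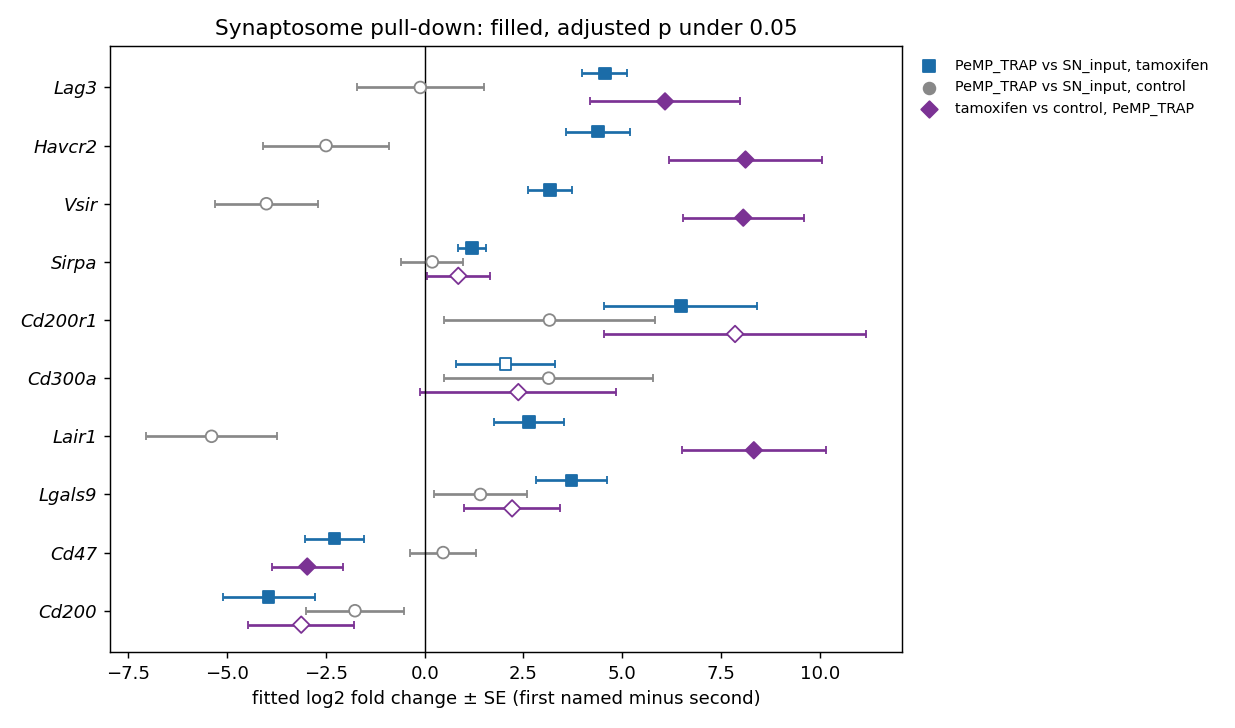
Points are fitted log2 fold changes with SE bars for PeMP_TRAP over SN_input in tamoxifen mice (n = 8 each) and in control mice (n = 3 each), and for tamoxifen over control in PeMP_TRAP (n = 3 each); filled points have an adjusted p under 0.05. Havcr2, Vsir and Lair1 are positive and filled with tamoxifen and negative and open in control, and Cd47 is negative and filled in both tamoxifen comparisons.

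The first-set MG_TRAP libraries gave no call between treatments. None of the 10 members, and 0.0% of 14771 genes tested, passed between tamoxifen and control by edgeR, although 5 members and 2351 genes had an unadjusted p under 0.05. DESeq2 called 3 members and 875 genes, and voom 8 members and 1811 genes. The tamoxifen libraries here are among those by which Lag3 and Lgals9 had been picked, so the values of both are a description. Lag3 had 4.57, 7.90 and 11.2 CPM in control and 75.6, 73.0 and 30.5 CPM with tamoxifen (3.27, SE 1.65). Lgals9 had 121, 64.5 and 332 CPM against 1967, 689 and 593 CPM (2.98, SE 1.25). For both genes the groups did not overlap. Cd200r1, among the DESeq2 calls with Lag3 and Vsir, had no count in any control Input, MG_TRAP or SN_input library, so that call supports nothing. In Input and in SN_input no member was called between treatments either, with 0.0% of all genes tested called in each. There, 2 members and 452 genes had an unadjusted p under 0.05 in Input, and 0 members and 495 genes in SN_input; no alternative called a member.

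Control mice give the pull-down without induced recombination. In MG_TRAP against Input of controls no member was called by edgeR, and 0.0135% of all genes tested were. Yet Lgals9 had 121, 64.5 and 332 CPM in control MG_TRAP and 0.201, 5.16 and 1.81 CPM in control Input, with no overlap (6.01, SE 1.45, adjusted p = 0.2). Havcr2 (6.25), Vsir (4.16) and Lair1 (3.95) were likewise higher in all 3 letters. These 4 had an unadjusted p under 0.05, as did 1101 of all 14771 genes tested. DESeq2 called Lgals9, Havcr2 and Vsir, among 223 genes in all. The 10 microglial markers summed to 907 to 4565 CPM in these control pull-downs and to 109 to 225 CPM in control Input. In PeMP_TRAP against SN_input of controls, no member and 0.0% of all genes tested were called, with 2 members and 2577 genes at an unadjusted p under 0.05. Those members, Lair1 (-5.39) and Vsir (-4.00), were lower in the pull-down in all 3 letters, opposite in sign to the tamoxifen mice, and DESeq2 called both, among 1275 genes in all; the difference between treatments was not tested.

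The wider pathway was read from 5 gene lists in PeMP_TRAP against SN_input of tamoxifen mice, where 6.15% of all genes tested rose and 26.1% fell. Among 8 phosphatases and adaptors, all tested, 4 rose and none fell: Csk (3.90), which holds Src kinases inactive, Dok3 (3.71), the phosphatase Ptpn6 (3.60) and the adaptor Dok1 (3.18). Csk had a median of 107 CPM in PeMP_TRAP and 7.83 CPM in SN_input, and Ptpn6 96.4 and 16.1 CPM. Among 13 other inhibitory myeloid receptors, 10 were tested, of which 4 rose and 2 fell. The sialic acid receptor Siglece (5.56), Pilra (5.23), the lectin Clec4a2 (4.29) and Cd33 (3.27) rose. Cd22 and Cd300lf fell, having no count in any PeMP_TRAP library and at most 4.56 and 5.44 CPM in SN_input. Of 8 other checkpoint receptors only Ceacam1 was tested, and it rose (7.58) with counts in 3 of 8 PeMP_TRAP libraries. Pdcd1, the PD-1 gene, had a median of 0 CPM in tamoxifen MG_TRAP. Of 11 other checkpoint ligands 7 were tested, and the costimulatory Cd86 rose (3.75) while Cd80 fell (-3.95). None of 4 other do-not-eat-me ligands and modifiers was called. The median differences of these lists were 2.81, 2.49, 7.58, -0.57 and -1.40, in the order named, beside -0.75 for all genes tested.

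Genes with the pattern most like 4 of the members were ranked by Pearson's correlation of log2 CPM over all 44 libraries, among 4479 genes with a mean log2 CPM of at least 4. The libraries share fraction, set and depth, so the values are descriptions. Lag3 was most like Actb (r = 0.919), Rplp0 (0.88) and Rps9 (0.878), an actin and ribosomal proteins. Sirpa was most like Ctsd (0.839), Cd81 (0.82) and Laptm5 (0.818), the first a lysosomal protease and the last a lysosomal membrane protein of blood cells. Cd47 was most like Sv2a (0.929), Sorl1 (0.928) and Igsf8 (0.912), the first a synaptic vesicle protein. Cd200 was most like Ggt7 (0.919), the glycine receptor subunit gene Glrb (0.907) and Agtpbp1 (0.901).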

How the data were processed

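RNA of 44 libraries was measured: Input, MG_TRAP, SN_input and PeMP_TRAP of 3 control and 8 tamoxifen letters. The authors deposited raw counts per Ensembl gene. Per the labels' protocols, cDNA was made with SMART-Seq v4 and libraries with NEBNext Ultra II, both without molecular identifiers. The submitters' processing notes name FastQC 0.11.7, Trimmomatic 0.38, Bowtie2 2.3.5, STAR 2.7.0d, HTSeq 0.9.1 and edgeR. The genome build, the annotation release and the strand setting are not given in the sources used here. Rows that name no gene held 27.0% to 93.4% of a library's total and were left out. Counts assigned to genes ranged from 746616 to 35584637 per library, and limits from 3 counts cover counting error only. A deposited table of the authors' normalized values and comparisons was not used here.

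The count tables hold 54146 and 55359 identifiers in the first and second set, of which 50714 are shared and were used. All shared identifiers were found in GENCODE M21, which gave symbols, lengths and GRCm38 coordinates. Groups were compared with edgeR 4.0.16 in R 4.3.3: TMM scaling, low counts filtered by filterByExpr (minimum 10), and quasi-likelihood F-tests. P-values were adjusted by Benjamini and Hochberg's method over every gene tested, with a threshold of 0.05. A model of all 32 tamoxifen libraries that also held the set gave the comparisons among tamoxifen fractions, and a model of the 24 first-set libraries gave the others. The code was tested on simulated data. Alternatives were RLE scaling, total counts, no filter, DESeq2 1.42.0, limma 3.58.1 voom with sample weights, the compared groups only, each set alone, a replicate block, and leaving out each letter. The members and the gene lists were chosen with earlier results of these data known. From each list the text names the genes past the threshold, and for 4 members the 3 genes of highest correlation.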

Additional observations from a re-analysis of the deposited data

Results flagged for a closer look

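Within each fraction of the tamoxifen mice (n = 8), the highest and the lowest log2 CPM of each member were tested for distance from the other libraries. Of the 40 groups tested 5 had such a library, where chance gives about 1 in 20 groups of like libraries. The 8 libraries come from both sets, whose levels can differ, and that rate takes no account of the set. Letter D gave 4 of them, 1 high and 3 low. Lgals9 was highest in its MG_TRAP library at 10.86, with 8.94 to 9.81 in the others, and lowest in its SN_input library at -0.94 (2 counts), with 3.28 to 5.196 in the others. Lair1 was also lowest in that SN_input library, at -0.49 (3 counts), with 4.23 to 5.24 in the others. The microglial markers summed to 308 to 866 CPM in the 3 first-set tamoxifen SN_input libraries, and in SN_input of letter D 10023 genes had a count, the fewest of the 11 SN_input libraries (12543 to 16876 in the others); the part of either in these values was not tested. Cd200 was lowest in MG_TRAP of letter D, at 0.83, with 3.77 to 5.52 in the others. Cd200r1 was highest in SN_input of letter E, at 1.43 (8 counts), where the others reached at most -0.93.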

How the results depend on the processing

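Under the alternatives, 523 values of single members kept their direction and their side of the threshold, 51 lost a call, 29 gained one, 22 uncalled values changed sign and 1 reversed: Lair1 in PeMP_TRAP against SN_input of tamoxifen mice was -0.38 with voom. Causes were not tested. Members called in that comparison numbered 9 (5074 of 15710 genes in all), but 5 with voom, 5 when the compared groups were fitted alone (2449 of 12596 genes, Cd200r1 not tested), 4 in the first set (372 of 12968), 5 in the second (6804 of 15617), and 8 to 9 when letters were left out. Against MG_TRAP, Lag3 and Lgals9 included, the 1 call (3952 of 15710 genes in all) became 3 with RLE scaling (4455 genes), 3 with total counts (4479), 4 with DESeq2 (5141), 6 with voom (5088), 0 in the first set, 2 in the second and 0 to 2 without single letters. In SN_input against Input the 3 calls (400 genes) became 6 with the compared groups alone (2779 of 14620), 0 in the first set (6 of 12968) and 3 to 4 without single letters. Between treatments in PeMP_TRAP the 5 calls (1643 of 14771 genes) became 1 with the compared groups alone (23 of 6518). They numbered 3 to 5 without single letters, and 3 without B (1393 of 16063), D (967 of 15697) or F (365 of 15984). In MG_TRAP between treatments the 0 calls became 3 with DESeq2 and 8 with voom. In controls, MG_TRAP against Input went from 0 to 1 with no filter, 3 with DESeq2, 1 with voom and 1 with the replicate block, and PeMP_TRAP against SN_input from 0 to 2 with DESeq2. The difference between sets went from 0 to 1 with no filter and 1 with voom. Over all genes, voom called 360 higher and 5960 lower in PeMP_TRAP against SN_input of tamoxifen mice, against 966 and 4108 by edgeR, and DESeq2 called 875 in MG_TRAP between treatments, against 0 by edgeR.

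The labels do not say whether a letter ties its 4 fractions to 1 animal. Over 4 pairings of fractions, deviations of same-letter libraries correlated at -0.04 to 0.22, and in none of the 4 at over 0.1 in every letter, so the letters were not taken to pair the libraries. With the letter as a replicate block, Lair1 (1.98) lost its call in PeMP_TRAP against SN_input, Lag3 (1.41) no longer passed the threshold against MG_TRAP while Cd200 (-4.05) gained one, and Lgals9 (5.96) gained one in control MG_TRAP against Input. No paired analysis was possible between treatments because control and tamoxifen share no letter. Second-set PeMP_TRAP was deeply sequenced, yet only 5372 to 7369 genes had a count there, so limits from counting error may be too low for members at 0 in it.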

Other observations

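Between tamoxifen and control PeMP_TRAP of the first set (n = 3 each), a minority of the other inhibitory pathway genes tested were called: 3 of 7 phosphatases and adaptors, 1 of 9 other inhibitory myeloid receptors, 1 of 6 other checkpoint ligands and 1 of 1 other checkpoint receptors rose, and 1 of 4 other do-not-eat-me genes fell. Cd33, Fcgr2b, Dok3, Inpp5d and Cd86 were among those not called. The phosphatases and adaptors that rose by edgeR's quasi-likelihood test were Ptpn6 (5.10, SE 1.53, adjusted p = 0.0294), Csk (5.85, SE 1.89, adjusted p = 0.0401) and the adaptor Skap2 (6.24, SE 1.91, adjusted p = 0.0317). Ptpn6 had 0.488 to 38.1 CPM in control and 127 to 906 CPM with tamoxifen, without overlap. Csk had 0 to 5.31 CPM against 5.23 to 325 CPM, and Skap2 0 to 3.54 CPM against 38.2 to 126 CPM. Pilra, an inhibitory receptor of myeloid cells, had 0 to 0.492 CPM in control and 91.8 to 123 CPM with tamoxifen (adjusted p = 0.0131). Ceacam1 had 0 to 0.488 CPM against 1.35 to 81.1 CPM (adjusted p = 0.0397). Cd48 was at 0 in every control PeMP_TRAP library and had 3.62 to 120 CPM with tamoxifen (12.1, SE 3.74, adjusted p = 0.0343 by edgeR). Against a group at 0 that fitted size depends on the prior count, so the Cd48 call supports nothing. Cx3cl1, the neuronal ligand of the microglial receptor CX3CR1, was the gene of these lists called lower (-3.09, SE 0.91, adjusted p = 0.0275): it had 324 to 1924 CPM in control and 37.8 to 194 CPM with tamoxifen. These calls were not rerun under the alternatives, and 5.56% of all genes tested were called in each direction.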
